A study of Mus musculus with 5 samples.

Results

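Estrogen receptor α (ERα) binding at 2 genes, Greb1 and Pgr, was described from 2 deposited peak lists of the mouse uterus. All peaks were taken that overlap Greb1 or Pgr with about 100 kb on each side, on the mouse build mm9: chromosome 12 from 16577000 to 16907000 for Greb1 and chromosome 9 from 8799000 to 9069000 for Pgr. This gave 45 of the 22424 peaks in both lists, 22 at Greb1 and 23 at Pgr. The peaks were chosen by position alone, not by their length or by their presence in either list.

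The study used chromatin immunoprecipitation and sequencing (ChIP-seq), in which fragments of chromatin bound by a protein are pulled down with an antibody and sequenced. A peak is an interval where a peak caller found more fragments than it set as background. Both groups were mice of the strain C57BL/6J, labelled WT (wild type). They had their ovaries removed and 10 to 14 days later received an intraperitoneal injection of saline vehicle or of 250 ng of estradiol per mouse, and the whole uterus was taken 1 hour afterwards. Each condition was 1 ERα library, made with the same antibody (sc-542). The labels do not give the age or the number of mice behind a library. The series also has libraries for RNA polymerase II and for input chromatin, not used here. There were 17240 peaks after estradiol and 5184 after vehicle, a ratio of 3.33. Neither list holds a score or a read count, so depth is unknown. Every difference below is between 2 libraries, with no replicate check and no p-value. Intervals of shares are 95% exact binomial (Clopper-Pearson) intervals, and those of count ratios are converted from such a share. Those of median lengths are binomial intervals on the ranked lengths. All cover counting error only and treat neighbouring peaks as independent.

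ERα is a nuclear receptor: estradiol binds it, and the receptor acts on genes from DNA sites that often lie far from gene starts. Its best-known recognition sequence is the estrogen response element, a palindrome whose arms are GGTCA and its complement. Pgr encodes the progesterone receptor, itself a nuclear receptor, which lets the uterus respond to progesterone and is needed for implantation. Greb1 takes its name from growth regulation by estrogen in breast cancer, and its protein is a chromatin-bound partner of ERα. Both are standard estrogen-responsive genes. The lists hold no expression values, so whether either gene responded in these animals was not measured. Whole uterus mixes epithelium, stroma and muscle, and the peaks cannot be assigned to a cell type. No marker of the tissue could be checked in peak lists.

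The 2 gene starts used for distances here, 1 per gene, differed in what lay near them. Greb1 is transcribed toward lower coordinates and spans about 16.677 to 16.807 Mb of chromosome 12. Pgr is transcribed toward higher coordinates and spans about 8.9 to 8.969 Mb of chromosome 9. These ends are rounded to 1 kb, which limits every distance to a gene start or end given here. An estradiol peak of 422 bp, from 8900196 to 8900617, began within 1 kb of the Pgr start and had no vehicle peak within 14.6 kb. RefSeq lists 2 starts for Greb1, but distances were measured only from 16.807 Mb, and peaks near another start were not sought. No peak of either list lay within 1 kb of that position. The closest estradiol peak there, 281 bp from 16803202 to 16803482, lay inside the gene with its nearer edge 3.52 kb from the start, and the closest on the other side, 231 bp from 16812354 to 16812584, lay 5.35 kb upstream. In the vehicle list the closest peak to a gene start was 9.49 kb away at Greb1 and 15.2 kb away at Pgr.

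Because a peak lay near the Pgr start, the 250 bases before that start are shown, from RefSeq on GRCm38.p6 (chr9:8899583-8899832, plus strand). Capitals mark a GC box, GGGCGG, a motif known to bind Sp1 factors and picked after the sequence was seen.

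Pgr: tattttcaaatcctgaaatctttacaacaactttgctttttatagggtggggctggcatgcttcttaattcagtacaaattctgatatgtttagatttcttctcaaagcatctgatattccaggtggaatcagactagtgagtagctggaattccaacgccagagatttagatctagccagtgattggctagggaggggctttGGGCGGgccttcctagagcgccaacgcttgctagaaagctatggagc

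These bases held no full estrogen response element (both arms, spaced by any 3 bases) and no single arm (GGTCA), searched on both strands. Over the 32851 starts of the same table, 0.0639% held the full element, 35.2% a single arm and 32.7% a GC box. The table lists 2 starts for Greb1. The first held 1 single arm and the second 2, and neither held a full element or a GC box. Every full element also counts as single arms. The build differs from that of the peaks, and no peak was placed on this sequence. The sequence under the peaks themselves was not used here.

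Greb1 held 18 estradiol and 4 vehicle peaks, a ratio of 4.5 (interval 1.48 to 18.3), and Pgr held 17 and 6, a ratio of 2.83 (1.07 to 8.78). Both intervals hold the 3.33 of the whole lists and each other's ratio, so no departure from the lists was detectable with this few peaks. The windows are 330 and 270 kb wide, and the counts depend on the flank: with 200 kb on each side Greb1 held 21 estradiol and 4 vehicle peaks and Pgr held 36 and 11. Estradiol peaks covered 6586 bp at Greb1 (mean length 366 bp) and vehicle peaks 1015 bp (mean 254 bp), a ratio of 6.49. At Pgr they covered 6304 bp (mean 371 bp) and 2101 bp (mean 350.2 bp), a ratio of 3.00. Over the whole lists the covered length was 4630 and 1180 kb (means 269 and 228 bp), a ratio of 3.93. Peaks were called separately in each library, so these sums move with how much was called.

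**Figure D1:**
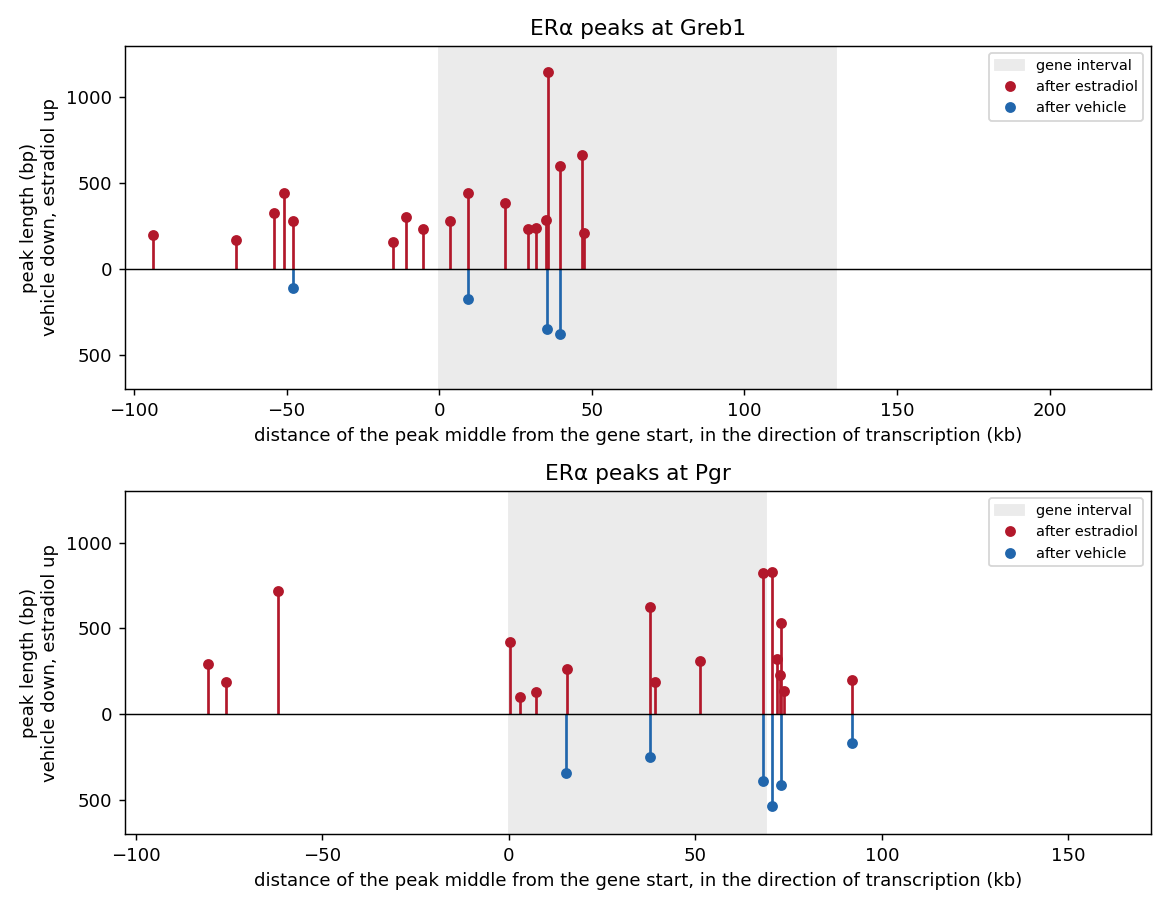
ERα peaks at Greb1 (top) and Pgr (bottom) by the distance of the peak's middle from the gene start in kb, with peak length in bp as height, estradiol peaks upward and vehicle peaks downward, and the gene interval in grey. All 18 Greb1 estradiol peaks lie upstream or in the 65 kb of the gene next to its start, while the Pgr peaks include a tight group at the gene end.

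Both loci were dense in peaks beside other windows of the same width. When windows of 330 kb were laid end to end along each chromosome, 1.01% of 7717 held at least the 18 estradiol peaks of Greb1, and 4.28% held at least its 4 vehicle peaks. Of 9437 windows of 270 kb, 0.774% held at least the 17 estradiol peaks of Pgr and 0.901% at least its 6 vehicle peaks. The median window held 1 estradiol peak at the first width and 0 at the second, and the densest held 41 and 33. Windows centred on estradiol peaks are a denser background. Of these, 11.2% reached the estradiol count of Greb1 and 9.90% that of Pgr, and 22.0% and 5.94% reached the vehicle counts. The genes' windows were thus in the upper part of both distributions, and neither was at the top.

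**Figure D2:**
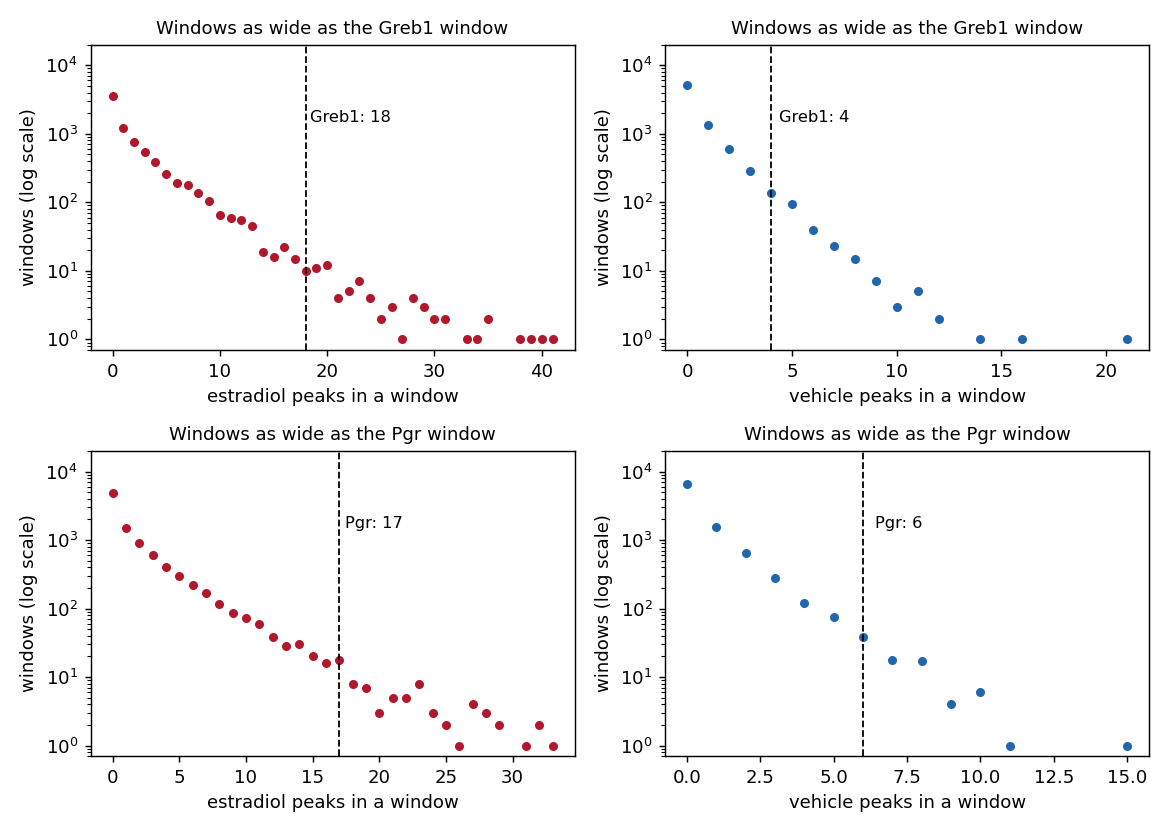
Number of windows (log scale) by the number of estradiol peaks (left) or vehicle peaks (right) they hold, for windows as wide as the Greb1 window (top) and the Pgr window (bottom); dashed lines mark the counts at each gene. Greb1 (18 and 4) and Pgr (17 and 6) lie in the sparse right part of each distribution, with windows of up to 41 and 33 estradiol peaks beyond them.

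All 10 vehicle peaks at these genes were overlapped by an estradiol peak, by at least 1 bp (100%, interval 69.2 to 100), against 71.3% of the whole vehicle list. The lower bound lies below that share, so a difference was not detectable with 10 peaks. With an overlap of 50% of both peaks, 1 of 4 vehicle peaks at Greb1 and 4 of 6 at Pgr were shared. With only the 5184 longest estradiol peaks kept, 3 of 4 (75%) and 4 of 6 (66.7%) were overlapped. The share of the whole vehicle list under either setting is not given here, and the 71.3% is not a background for them. In the other direction, the overlapped peaks numbered 10 of 35 after estradiol (28.6%, 14.6 to 46.3), against 21.2% of the whole estradiol list. The share was 22.2% (6.41 to 47.6) at Greb1 and 35.3% (14.2 to 61.7) at Pgr, and these intervals overlap. The remaining 14 peaks at Greb1 and 11 at Pgr were called after estradiol alone, by the 1 bp overlap. With a gap of up to 1000 bp allowed, 5 of 18 estradiol peaks at Greb1 (27.8%) and 9 of 17 at Pgr (52.9%) counted as shared. The share of the whole list with that gap is not given here.

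At Greb1 the peaks lay in the upstream flank and in the part of the gene next to its start, and the rest was empty. The 65 kb of the gene next to its start held 10 estradiol and 3 vehicle peaks, or 15.4 and 4.62 per 100 kb. The 100 kb upstream held 8 and 1. The other 65 kb of the gene and the 100 kb beyond it held 0 peaks in both lists. The nearest estradiol peak in that direction ended at 16563280, so that 196 kb passed without one. The genes next to Greb1 in RefSeq (GRCm38) are E2f6, an lncRNA gene Gm36495 and Rock2 upstream, and Ntsr2 and Lpin1 downstream. The distances from the upstream peaks to these genes on mm9 were not measured.

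The longest peak of either list at these genes lay inside Greb1. It was called after estradiol from 16770841 to 16771990, 1150 bp, and ranked number 10 by length among all 17240 estradiol peaks. The vehicle peak under it, from 16771546 to 16771896, was 351 bp. The next vehicle peak, from 16767164 to 16767542, was 379 bp and lay under an estradiol peak of 601 bp from 16767093 to 16767693. These vehicle peaks lay 35.1 and 39.5 kb inside the gene from its start and were in the longest 10% of the vehicle list. The remaining vehicle peak in the gene, 173 bp from 16797341 to 16797513, lay 9.49 kb from the start under an estradiol peak of 443 bp from 16797199 to 16797641. The only vehicle peak upstream, 112 bp from 16854873 to 16854984, lay 47.9 kb from the start, under an estradiol peak of 281 bp from 16854794 to 16855074. It was among the shortest in its list, at percentile 6.46 by length.

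The estradiol-only peaks inside Greb1 lay on either side of these sites. The longest was 667 bp, from 16759844 to 16760510, with a peak of 210 bp from 16759428 to 16759637 beside it. Closer to the start came 286 bp from 16771997 to 16772282, which began 6 bp after the end of the 1150 bp peak and is joined to it when peaks closer than 500 bp are joined. Next were 236 bp from 16775120 to 16775355, 231 bp from 16777795 to 16778025 and 384 bp from 16785408 to 16785791. The 281 bp peak nearest the start completes the 10 estradiol peaks of the gene. Together 7 of them, with 2 vehicle peaks, fell within 18.6 kb and made up 51.3% of the estradiol-covered sequence of the locus. This stretch, a run of peaks with gaps under 7 kb, was bounded after its values were seen. The whole estradiol list held 73 places with as many peaks in as short a span. Its 2 vehicle peaks spanned 4.73 kb, and the vehicle list held 466 such places. Upstream, the longest estradiol peak was 442 bp from 16857573 to 16858014, which had no vehicle overlap. The other upstream peaks without a vehicle overlap were 157 to 324 bp.

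**Figure D3:**
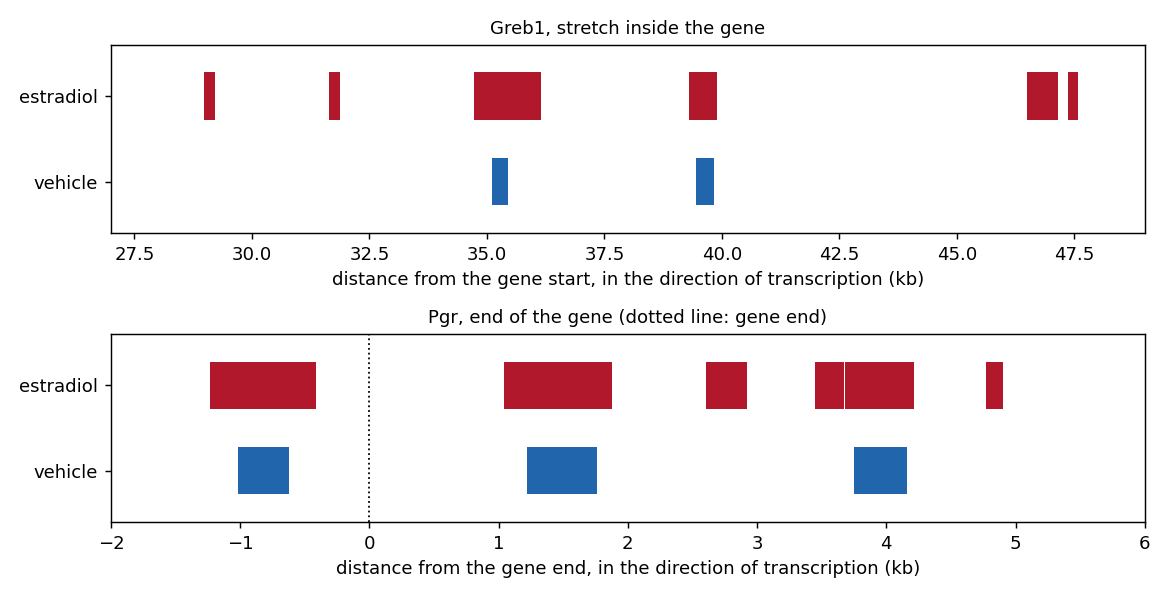
Position and width of each peak in a run of estradiol peaks inside Greb1 with gaps under 7 kb (top, kb from the gene start) and at the end of Pgr (bottom, kb from the gene end, dotted line), with estradiol peaks above vehicle peaks. In these runs 7 Greb1 estradiol peaks stand over 2 vehicle peaks and 6 Pgr estradiol peaks over 3 vehicle peaks.

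At Pgr the peaks were spread over the gene and lay closest together at its end. The gene, 69 kb, held 8 estradiol and 3 vehicle peaks, or 11.6 and 4.35 per 100 kb. The 100 kb downstream held 6 and 3, and the 101 kb upstream held 3 and 0. Between the upstream peaks and the peak near the gene start lay 61.9 kb without an estradiol peak. The neighbours of Pgr in RefSeq (GRCm38) are an lncRNA gene, Gm32014, and Trpc6 upstream, and Arhgap42 downstream.

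The group at the Pgr end held 6 estradiol and 3 vehicle peaks within 6.14 kb, from 8967767 to 8973905. The first pair lay just inside the gene, with a vehicle peak of 392 bp from 8967987 to 8968378 under an estradiol peak of 824 bp from 8967767 to 8968590. The second lay 1.22 kb past the gene end, with the longest vehicle peak of both genes, 537 bp from 8970224 to 8970760, under the longest Pgr estradiol peak, 831 bp from 8970044 to 8970874. The last was a vehicle peak of 412 bp from 8972751 to 8973162 under an estradiol peak of 532 bp from 8972684 to 8973215. All 3 vehicle peaks were in the longest 10% of their list. Estradiol-only peaks of 320, 229 and 137 bp lay between and beyond them, and the peak of 229 bp ended 9 bp before the estradiol peak of 532 bp. The group made up 45.6% of the estradiol-covered and 63.8% of the vehicle-covered sequence of the locus. This group too was bounded after its values were seen, as a run of peaks with gaps under 2.5 kb. The whole estradiol list held 12 places with as many peaks in as short a span. Its 3 vehicle peaks spanned 5.18 kb, and the vehicle list held 56 such places.

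Inside the gene, 2 more Pgr sites were bound in both libraries. A vehicle peak of 345 bp from 8915243 to 8915587 overlapped an estradiol peak of 265 bp from 8915302 to 8915566. A vehicle peak of 247 bp from 8937743 to 8937989 lay under an estradiol peak of 625 bp from 8937529 to 8938153. The last shared site, 22.8 kb past the gene end, had a vehicle peak of 168 bp from 8991794 to 8991961 and an estradiol peak of 198 bp from 8991812 to 8992009. Besides the peak near the start, the estradiol-only peaks of the gene were 102 bp from 8902896 to 8902997, 127 bp from 8907291 to 8907417, 187 bp from 8939083 to 8939269 and 308 bp from 8951175 to 8951482. The longest estradiol-only peak of either gene lay 61.7 kb upstream of Pgr. It was 717 bp, from 8837608 to 8838324, and its nearest vehicle peak was 76.9 kb away, inside Pgr.

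At the 10 shared sites the estradiol peak was the longer in 9, against 74.8% of all 3584 sites in the lists where 1 vehicle peak met 1 estradiol peak. The exception was the Pgr site of 345 bp after vehicle and 265 bp after estradiol, a ratio of 0.768. The median ratio of estradiol to vehicle length was 1.84 over the 10 sites, against 1.29 over all such sites. It was 2.53 at Greb1 (4 sites, 1.59 to 3.28) and 1.42 at Pgr (6 sites, 0.768 to 2.53), ranges that overlap. The ratio of 3.28 at the 1150 bp Greb1 peak stood at percentile 96.8 of all such sites. With 10 sites, neither the share of longer estradiol peaks nor the median ratio was tested against the lists.

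The vehicle peak lay wholly within the estradiol peak in 8 of the 10 shared sites. The share was 63.4% over all sites, and a difference was not tested with so few. The other two were the Pgr site with the longer vehicle peak and the site 22.8 kb past the gene end, where 89.3% of the vehicle peak was covered. The extra called length was mostly on both sides: the median distance between the middles of the paired peaks was 22 bp. Depth and calling threshold are unknown, and their part in these peak edges was not tested. The 1150 bp Greb1 peak stood apart, with its middle 305.5 bp from that of the vehicle peak. It reached 705 bp past the vehicle peak on the side away from the gene start and 94 bp past it on the other. The Pgr peak of 824 bp by contrast extended 220 bp and 212 bp.

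**Figure D4:**
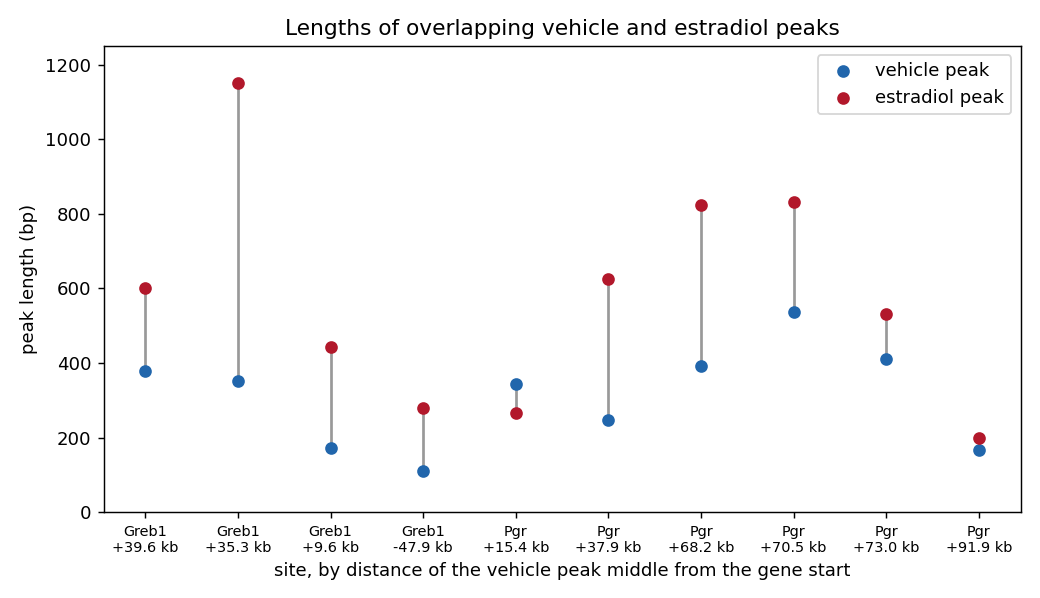
Length in bp of the vehicle and the estradiol peak at each of the 10 shared sites, named by gene and by the distance of the vehicle peak's middle from the gene start. The estradiol peak is the longer at 9 sites, from 198 bp against 168 bp to 1150 bp against 351 bp, and the Pgr site at 345 bp after vehicle and 265 bp after estradiol is the exception.

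Long peaks made up more of these loci than of the list. Of the 35 estradiol peaks, 11 (31.4%) were at least 420 bp, a length reached by 10.0% of the whole list. They were 5 peaks at Greb1 and 6 at Pgr, and 7 of the 11 overlapped a vehicle peak. The overlapped share of all estradiol peaks this long was not computed, so the 7 cannot be read as particular to these genes. Of the 10 vehicle peaks, 5 were at least 347 bp, a length again reached by 10.0% of its list. The medians moved less. The estradiol median was 283.5 bp at Greb1 (interval 231 to 442) and 293 bp at Pgr (187 to 532), against 242 bp in the list, which lies in both intervals. At Greb1 the median was 522 bp for shared and 258.5 bp for estradiol-only sites, and at Pgr it was 578.5 and 229 bp. The same medians over the whole list were not computed.

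Estradiol-only peaks at these genes lay close to sites that were also bound after vehicle. Within 10 kb of a vehicle peak lay 8 of 14 at Greb1 (57.1%) and 5 of 11 at Pgr (45.5%), against 18.4% of all 13577 estradiol-only peaks. No interval is given for these shares, and the peaks are not independent. The Greb1 peak of 286 bp and the Pgr peak of 229 bp lay 6 and 9 bp from a shared estradiol peak. The Pgr peaks of 320, 229 and 137 bp all belong to the group at the gene end. The median distance of the estradiol-only peaks to a vehicle peak was 7.09 kb at Greb1 and 12.2 kb at Pgr, against 61.3 kb in the list. Both windows are rich in vehicle peaks, as given above, and the part of that density in these distances was not tested. The distances reached 45.8 kb at Greb1 and 76.9 kb at Pgr, both on the upstream side of the gene.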

How the data were processed

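Peaks of ERα from 1 vehicle and 1 estradiol library were used. The authors deposited each list as chromosome, start, end and peak name. Per the file headers the build is mm9. The submitters' processing notes name Partek without a role. No aligner, peak caller, threshold or use of input is named by the sources used here. Deposited starts were read as counted from 0 and are printed counted from 1. No peak overlapped another of its own list.

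Members were all peaks overlapping either window. Gene ends came from the selection rule, strand, neighbours and promoter sequence from RefSeq tables (GRCm38.p6, used for names, order and the printed sequence). Python 3.11.15, numpy 2.4.6, pandas 2.3.3 and scipy 1.17.1 were used, and the counting was tested on simulated data. Regions were assigned by peak middles. Text positions were given for vehicle peaks, estradiol peaks within the gene or 10 kb of its start, and the 5 longest per locus. Estradiol partners of vehicle peaks and the other peaks of the group at the Pgr end are named as well, the latter after their values were seen. Members and lists were chosen with earlier results of these data known. Alternatives changed flank, overlap, list, joining, run gap and windows.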

Additional observations from a re-analysis of the deposited data

How the results depend on the processing

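Of 68 recomputed values, 50 stayed within 1.5 times a count or within the interval of a share or median. With the gene interval alone, Greb1 held 10 estradiol peaks and Pgr held 8 estradiol and 3 vehicle peaks. With a flank of 200 kb, Pgr held 36 and 11, and Greb1 21 and 4. Among peaks at or above their list's median length, Greb1 held 11 estradiol and 2 vehicle peaks and Pgr 10 estradiol peaks. When only the 5184 longest estradiol peaks were kept, each gene held 8. An overlap of 50% of both peaks left 5.56% of Greb1 estradiol peaks and 25% of its vehicle peaks shared, because that overlap cannot be met where the estradiol peak is over 2 times as long. With only the longest estradiol peaks kept, the vehicle share was 75% at Greb1 and 66.7% at Pgr. Whole-list shares under either setting are not given here. The largest run of estradiol peaks at Greb1 held 13 at the gap first used and 5 with gaps under 5 kb. At Pgr it held 6, and 14 with gaps under 25 kb. Windows centred on estradiol peaks reached the Greb1 counts in 11.2% (estradiol) and 22.0% (vehicle) and the Pgr counts in 9.90% and 5.94%. The shortened estradiol list, joined peaks for the overlap shares and the vehicle windows were chosen after seeing the data. No paired analysis was possible because each condition has 1 library, and none could be left out. Read depth is unknown and limits every count.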

Other observations

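Beyond the windows, the next estradiol peaks lay 40.4 kb below and 57.8 kb above the Pgr window, and 13.7 kb below and 19.0 kb above the Greb1 window. The deposited peak names carry a number whose meaning the labels and headers do not state. The lowest 5480 estradiol numbers run in genome order and hold 31.8% of the list. Their median length was 354 bp, against 203 bp for the others, and 34.6% of them overlapped a vehicle peak, against 15.0% of the others. At these genes 17 of 35 estradiol peaks (48.6%) had such a number, 9 at Greb1 and 8 at Pgr. At Greb1 those 9 were 281 to 1150 bp long, and the other 9 had a median of 231 bp. At Pgr the 8 had a median of 578.5 bp, and the other 9 had a median of 187 bp, among them the 422 bp peak near the Pgr start.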
